A study of Mus musculus with 4 samples.

Results

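The AP-1 factors examined here were 10 genes of the Fos, Jun, ATF, BATF and small Maf families: Fos, Fosb, Fosl2, Jun, Junb, Jund, Atf3, Batf, Maff and Mafk. Every probe set annotated to one of these symbols alone was taken, which gave 13 of the 45037 probe sets other than array controls. Fosl2, Jun and Jund had 2 probe sets each and the other genes 1. They stand for 10 of the 18193 genes that had a named probe set. RNA was measured on 4 Affymetrix arrays, 2 per population, in long-term (LT-HSC) and short-term (ST-HSC) haematopoietic stem cells, which are neighbouring stages of blood formation. Both populations were sorted from mouse bone marrow as lineage-negative cKit+ Sca1+ CD135- cells, and were separated by CD34, absent from LT-HSC and present on ST-HSC.

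All mice were MxCre- controls on a C57BL/6 background, which carry no Mx-driven Cre recombinase. They had been given poly(I:C), an RNA mimic of viral infection that triggers interferon, in 7 injections. For LT-HSC replicates 1 and 2 the mice were 7.5 weeks old and the last injection lay 4 weeks back. Age and interval were the same for ST-HSC replicate 2, whereas for ST-HSC replicate 3 the mice were 8.5 weeks old and the interval was 3 weeks. One label of the ST-HSC samples calls the tissue LT-HSC although the gate given there is CD34+, and their titles were followed. The labels do not say how many animals each array holds, so the p-values measure the spread between these arrays, which may be technical.

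AP-1 is a dimeric transcription factor. Its subunits share a basic region that contacts DNA and a leucine zipper through which they pair. Jun proteins pair with each other, with Fos proteins or with ATF and BATF proteins, while Fos proteins need a Jun partner. Fos, Fosb, Jun, Junb and Atf3 are immediate early or early response genes whose transcripts are short-lived and rise within minutes of growth factors, stress or cell handling. Small Maf proteins such as MafF and MafK have no activation domain of their own and act as partners, above all of the CNC and Bach factors.

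The Fos and Jun transcripts were high on both LT-HSC arrays, lower on ST-HSC replicate 2 and lowest on ST-HSC replicate 3. In the fit across all probe sets, Fosb and Junb rose in LT-HSC, and none of the 13 probe sets fell. Both calls were lost when either LT-HSC array was left out. Fos, Jun and Jund lay higher on both LT-HSC arrays than on both ST-HSC arrays but did not pass, and their ST-HSC arrays differed widely from each other. Fosl2, Atf3, Batf and Maff were dimmer and did not pass.

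ST-HSC replicate 3 stood apart from the other 3 arrays in several measures. The ratio of the 3′ to the 5′ control probe set of beta-actin, which grows as the 5′ end of a transcript is lost in RNA decay or amplification, was 18.4 and 19.6 on LT-HSC replicates 1 and 2, against 19.5 on ST-HSC replicate 2 and 6.65 on ST-HSC replicate 3. Xist, the non-coding RNA of the inactive X chromosome, read 19.0 and 70.9 on the LT-HSC arrays, against 32.3 on ST-HSC replicate 2 and 2731 on ST-HSC replicate 3. Eif2s3y, a gene of the Y chromosome, read 333 and 276 on the LT-HSC arrays, against 289 on ST-HSC replicate 2 and 6.19 on ST-HSC replicate 3. Of the other Y-linked genes looked at, Kdm5d read 51.7 and 98.1 on the LT-HSC arrays, against 99.3 on ST-HSC replicate 2 and 14.1 on ST-HSC replicate 3. Uty was dim and did not share this order, with 8.40 and 27.8 on the LT-HSC arrays, against 17.4 and 23.4 on the ST-HSC pair. These sex-linked genes were chosen after their values were seen. The summed intensity of 9 neutrophil markers was 3958 and 615 on the LT-HSC arrays, against 6425 on ST-HSC replicate 2 and 57149 on ST-HSC replicate 3. Of those 9 genes, none was under an intensity of 1 on any array. In LT-HSC 1 of them (Mpo) fell, where 6.41% of all genes tested fell. At an unadjusted limma p under 0.05, 4 of them were lower in LT-HSC, where 18.0% of all genes tested were. Age, the interval after poly(I:C), Xist, Eif2s3y and Kdm5d, the 3′ to 5′ ratio and the neutrophil markers therefore cannot be told apart on that array. Their part in its AP-1 values was not tested.

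**Figure D1:**
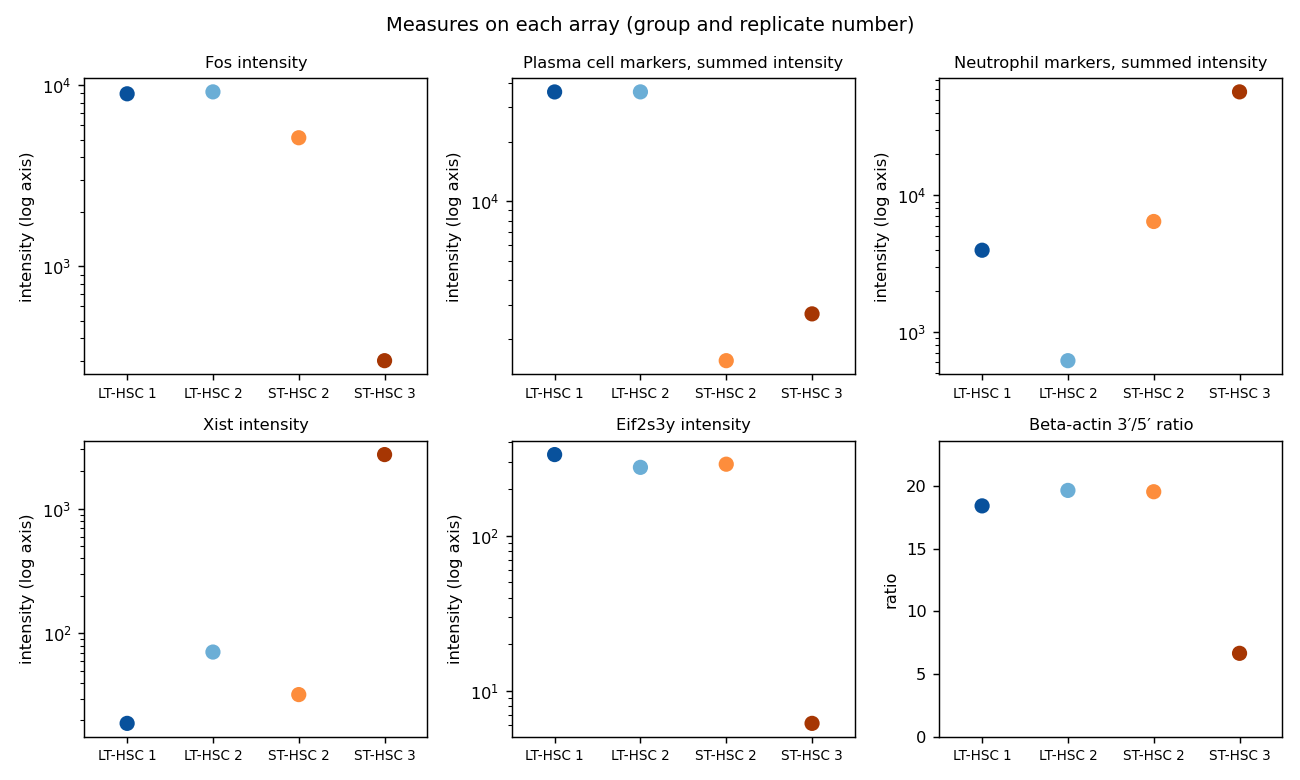
Each panel plots 1 measure on the 4 arrays, in the order LT-HSC replicates 1 and 2 and ST-HSC replicates 2 and 3, with log axes for intensities and a linear axis from 0 for the ratio. Fos, Eif2s3y and the beta-actin ratio were lowest on ST-HSC replicate 3, where Xist and the neutrophil markers were highest, while the plasma cell markers separated both LT-HSC arrays from both ST-HSC arrays.

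The promoters of Fos, Fosb, Jun and Junb are shown, from members that were high together in LT-HSC. Jund, whose bright probe set had the same array order, is not shown, and its window held none of the marked motifs. Each sequence is the RefSeq window of build GRCm38.p6, from 250 bases before to 50 bases after the annotated start, read on the strand of the gene. Capitals mark TGACG, the core of the cyclic AMP response element, TGACATCA, the variant known from the Jun promoter, and TATAAA, the TATA box, each searched on both strands. Fos lies on the plus strand at chr12:85473640-85473939, Fosb on the minus strand at chr7:19309996-19310295, Jun on the minus strand at chr4:95052173-95052472 and Junb on the minus strand at chr8:84978699-84978998.
Fos: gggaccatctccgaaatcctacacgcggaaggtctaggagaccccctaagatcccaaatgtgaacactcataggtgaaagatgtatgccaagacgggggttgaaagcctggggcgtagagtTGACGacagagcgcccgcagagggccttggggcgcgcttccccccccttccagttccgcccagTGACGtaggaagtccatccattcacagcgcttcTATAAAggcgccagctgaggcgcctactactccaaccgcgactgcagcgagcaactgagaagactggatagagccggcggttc
Fosb: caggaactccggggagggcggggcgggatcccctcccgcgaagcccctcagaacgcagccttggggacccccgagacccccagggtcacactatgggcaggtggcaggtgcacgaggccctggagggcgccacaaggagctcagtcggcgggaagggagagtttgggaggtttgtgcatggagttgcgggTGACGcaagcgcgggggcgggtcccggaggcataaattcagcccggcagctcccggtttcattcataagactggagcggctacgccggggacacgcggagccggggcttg
Jun: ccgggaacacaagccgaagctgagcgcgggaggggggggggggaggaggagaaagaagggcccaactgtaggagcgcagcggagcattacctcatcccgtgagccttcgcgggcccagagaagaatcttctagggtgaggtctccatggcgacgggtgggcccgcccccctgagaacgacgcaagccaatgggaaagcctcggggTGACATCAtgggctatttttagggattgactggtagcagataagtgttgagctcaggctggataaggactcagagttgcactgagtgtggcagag
Junb: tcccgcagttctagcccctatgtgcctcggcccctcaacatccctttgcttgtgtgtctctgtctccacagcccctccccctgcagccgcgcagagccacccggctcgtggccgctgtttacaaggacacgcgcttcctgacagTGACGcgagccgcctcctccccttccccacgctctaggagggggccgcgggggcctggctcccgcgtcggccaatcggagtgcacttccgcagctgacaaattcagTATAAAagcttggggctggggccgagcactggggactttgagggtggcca

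TGACG began 129 and 66 bases before the start of Fos, 60 before that of Fosb and 106 before that of Junb. It was in 8 of the 12 windows of the members, which belong to 7 of the 10 genes, and in 20.8% of all 32851 promoter windows. TGACATCA began 45 bases before the start of Jun and was also in 1 of the 3 windows of Maff, against 3.62% of all windows. TATAAA began 33 bases before the start of Fos and at the annotated start of Junb, against 13.6% of all windows. The full element TGACGTCA, which contains TGACG, was in 1 window of Maff alone among the members and in 1.79% of all windows. The AP-1 site TGACTCA (5.2% of all windows) and the CArG box bound by serum response factor (1.63%) had no match in the 12 windows of the members. The windows reach only 250 bases before the start, and sequence further upstream was not searched, so these genes may carry such sites there. A match is a run of letters in these windows and not a measured binding site.

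Fos encodes c-Fos, the first described Fos protein. Its probe set 1423100_at (gene at chr12:85473890-85477274) had intensities of 8944 and 9166 on the LT-HSC arrays, against 5118 on ST-HSC replicate 2 and 301 on ST-HSC replicate 3. The LT-HSC arrays lay close together, and the ST-HSC arrays were 17.0-fold apart. The groups did not overlap. On the scale used for tests, log2(intensity + 16) after quantile normalization, Fos averaged 13.11 ± 0.0045 in LT-HSC and 10.36 ± 2.87 in ST-HSC (SD, n = 2 arrays each). The difference of 2.75 (SE 1.11) did not pass (limma adjusted p = 0.15).

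Fosb encodes a second Fos protein, known for its truncated splice form that lacks part of the activation domain. Its probe set 1422134_at (chr7:19302696-19310118) read 2117 and 1979 on the LT-HSC arrays, against 289 on ST-HSC replicate 2 and 6.11 on ST-HSC replicate 3. The reading on ST-HSC replicate 3 lay at the 11.7th percentile of that array and the LT-HSC readings at the 98.2 and 98.1 percentiles of theirs. Fosb rose in LT-HSC, 24.1-fold on the log2(intensity + 16) scale (means 10.88 ± 0.02 in LT-HSC and 6.29 ± 2.67 in ST-HSC, SD, n = 2 arrays each; difference 4.59, SE 1.06, limma adjusted p = 0.0378). That fold depends on the pseudocount of 16, since the lower ST-HSC reading is below it. The call of Fosb was lost with a pseudocount of 1 (limma adjusted p = 0.0652) and with no intensity trend in the fit (limma adjusted p = 0.0513). Leaving out LT-HSC replicate 1 (difference 4.49) or LT-HSC replicate 2 (difference 4.59) lost it as well.

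Fosl2 encodes Fra-2, a Fos protein that lacks the strong activation domain of c-Fos. Its brighter probe set 1437247_at (chr5:32136472-32157840) read 84.3 and 118 on the LT-HSC arrays, against 239 on ST-HSC replicate 2 and 108 on ST-HSC replicate 3. Here the groups overlapped, and ST-HSC replicate 2 was the highest array. The dimmer probe set 1422931_at read 21.2 and 46.0 on the LT-HSC arrays, against 42.2 and 46.0 on the ST-HSC pair. Neither passed, with differences of -0.50 (SE 0.39, limma adjusted p = 0.422) and -0.22 (SE 0.32, limma adjusted p = 0.686). Fosl2 thus did not share the array order of Fos and Fosb.

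Jun encodes c-Jun, the main partner of Fos proteins, and its 2 probe sets (chr4:95049036-95052222) were both highest on the LT-HSC arrays and lowest on ST-HSC replicate 3. The brighter one, 1448694_at, read 3522 and 3567 on the LT-HSC arrays, against 1646 on ST-HSC replicate 2 and 199 on ST-HSC replicate 3. The second one, 1417409_at, read 3083 and 2761 on the LT-HSC arrays, against 1072 on ST-HSC replicate 2 and 68.4 on ST-HSC replicate 3. On both, the groups did not overlap and the ST-HSC arrays were far apart. The differences of 2.32 (SE 0.87, limma adjusted p = 0.127) and 3.05 (SE 1.05, limma adjusted p = 0.105) did not pass. The means of the brighter probe set were 11.63 ± 0.06 in LT-HSC and 9.32 ± 2.21 in ST-HSC (SD, n = 2 arrays each).

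Junb encodes a Jun protein that can oppose c-Jun and that restrains the expansion of blood stem and myeloid cells in mice. Its probe set 1415899_at (chr8:84976909-84978748) read 3051 and 2512 on the LT-HSC arrays, against 1022 on ST-HSC replicate 2 and 514 on ST-HSC replicate 3. Its ST-HSC arrays were 1.99-fold apart, closer than those of Fos, Fosb, Jun and the bright probe set of Jund. Junb rose in LT-HSC, 3.27-fold (means 11.30 ± 0.15 in LT-HSC and 9.59 ± 0.78 in ST-HSC, SD, n = 2 arrays each; difference 1.71, SE 0.36, limma adjusted p = 0.0298). The call was lost with no intensity trend in the fit (limma adjusted p = 0.053). It was also lost without LT-HSC replicate 1 (difference 1.56) and without LT-HSC replicate 2 (difference 1.79). Of the 13 probe sets it had the smallest p, at rank 2066 of the 27022 tested.

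Jund encodes JunD, the Jun protein known for steadier expression in resting cells. Its bright probe set 1449117_at (chr8:70697739-70700616) read 5403 and 5643 on the LT-HSC arrays, against 2768 on ST-HSC replicate 2 and 889 on ST-HSC replicate 3. The difference was 1.59 (SE 0.49) and did not pass (limma adjusted p = 0.083). The second probe set 1440265_at was dim, at 25.7 and 26.2 on the LT-HSC arrays, against 36.5 and 33.1 on the ST-HSC pair, with a difference of -0.17 (SE 0.31, limma adjusted p = 0.75). The 2 probe sets of Jund therefore disagreed in sign, and neither difference passed.

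**Figure D2:**
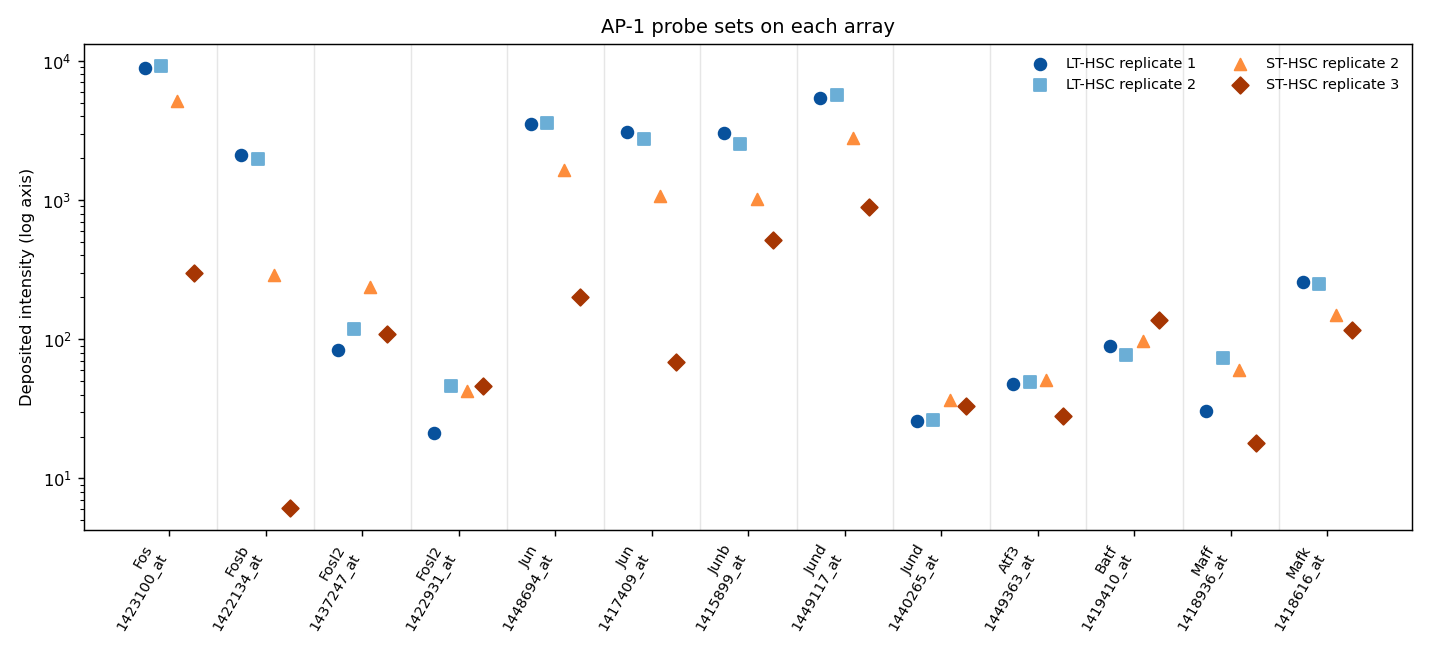
Points are the deposited intensities (log axis) of the 13 AP-1 probe sets on each of the 4 arrays, with LT-HSC arrays as circles and squares and ST-HSC arrays as triangles and diamonds. For Fos, Fosb, both probe sets of Jun, Junb, the bright probe set of Jund and Mafk, both LT-HSC points lie above both ST-HSC points.

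The stress-induced and lymphoid members read far lower than Fos and Jun on the LT-HSC arrays. Atf3 encodes a stress-induced factor that often represses transcription, and its probe set 1449363_at (chr1:191170296-191183333) read 47.8 and 49.4 on the LT-HSC arrays, against 50.7 and 27.9 on the ST-HSC pair. Batf encodes a factor that pairs with Jun proteins and cooperates with IRF4 in lymphocytes, and its probe set 1419410_at (chr12:85686720-85709087) read 89.4 and 77.4 on the LT-HSC arrays, against 96.5 and 138 on the ST-HSC pair. The deposited values of Atf3 overlapped between the groups, while those of Batf were lower on both LT-HSC arrays. After normalization this turned round, with Atf3 apart and Batf overlapping. Differences of 0.40 (SE 0.33, limma adjusted p = 0.457) for Atf3 and -0.27 (SE 0.36, limma adjusted p = 0.65) for Batf did not pass.

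Of the small Maf genes, Mafk varied little between replicates. Its probe set 1418616_at (chr5:139791536-139802653) read 259 and 250 on the LT-HSC arrays, against 149 and 117 on the ST-HSC pair. The groups did not overlap, and the 2 arrays of each group lay close together. Mafk averaged 8.11 ± 0.08 in LT-HSC and 7.14 ± 0.10 in ST-HSC (SD, n = 2 arrays each). Its difference of 0.97 (SE 0.29), 1.96-fold, did not pass (limma adjusted p = 0.0761). Maff read 30.7 and 73.2 on the LT-HSC arrays, against 60.1 and 18.0 on the ST-HSC pair, on probe set 1418936_at (chr15:79346621-79359078). The groups overlapped, and its difference of 0.53 (SE 0.45) did not pass (limma adjusted p = 0.466).

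Over the family, 2 of the 13 probe sets (Fosb and Junb) rose in LT-HSC, where 6.72% of all 27022 probe sets tested rose. In limma 0 of the 13 fell, where 5.48% of all fell. At an unadjusted p under 0.05, 7 of the 13 were higher in LT-HSC and 0 lower, where 13.7% of all were higher and 16.7% lower. Both LT-HSC arrays lay above both ST-HSC arrays in 8 of the 13 after normalization, against 26.9% of all probe sets tested. They lay below both in 1 (the dim probe set of Jund), against 34.2% of all. The median difference over the 10 genes, each by its brightest probe set, was 1.28, beside -0.08 over the 12832 genes tested.

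Set against each ST-HSC array alone, the family differed in size but mostly not in sign. The mean of the LT-HSC arrays was more than 2-fold above ST-HSC replicate 2 in 3 of the 13 probe sets (Fosb, Junb and 1 of Jun), where 10% of all probe sets were. It was more than 2-fold above ST-HSC replicate 3 in 8 of the 13, where 14.0% of all were. For Fos the difference was 0.72 against ST-HSC replicate 2 and 4.78 against ST-HSC replicate 3. For Fosb it was 2.70 and 6.48, and for the brighter probe set of Jun 0.76 and 3.88. For Junb it was 1.15 and 2.26, for the bright probe set of Jund 0.72 and 2.46, and for Mafk 0.90 and 1.04. These pairs of values share the LT-HSC arrays.

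**Figure D3:**
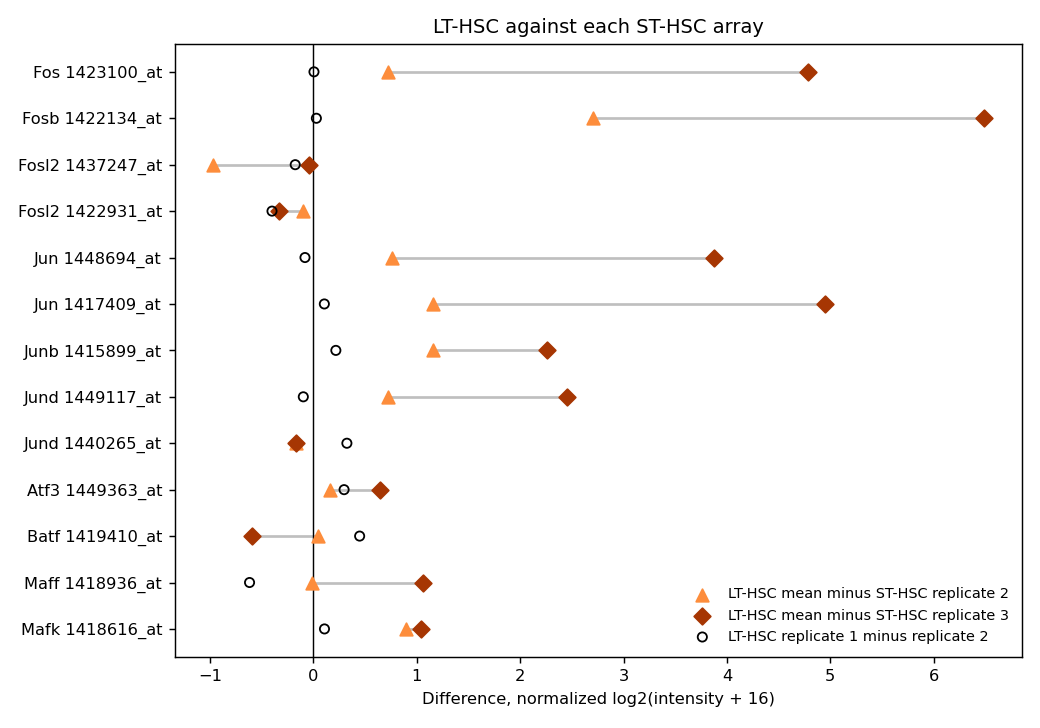
Horizontal positions are differences in normalized log2(intensity + 16) for the 13 probe sets, with triangles for the LT-HSC mean minus ST-HSC replicate 2, diamonds for the LT-HSC mean minus ST-HSC replicate 3, and open circles for LT-HSC replicate 1 minus replicate 2. Fos ran from 0.72 to 4.78 and Mafk from 0.90 to 1.04.

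The ST-HSC arrays differed from each other more over these genes than over most of the array. ST-HSC replicate 3 was more than 2-fold below ST-HSC replicate 2 in 7 of the 13 probe sets, where 7.28% of all were. For Fos this gap was -4.06, larger in size than that of 99.9% of the probe sets tested. The gaps of Fosb (-3.78) and of the probe sets of Jun (-3.12 and -3.79) were larger than those of 99.9%, 99.7% and 99.9%. That of Junb (-1.11) was larger than that of 90.3%, and that of Mafk (-0.14) larger than that of 20.0%. Between the LT-HSC arrays Fos differed by 0.0064 and Fosb by 0.03. Over all probe sets tested, the median SD of a pair was 0.19 in LT-HSC and 0.28 in ST-HSC.

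The calls of the family depended on which array was left out. Without ST-HSC replicate 3, whose mice were older and taken sooner after poly(I:C), 7 of the 13 probe sets rose in LT-HSC, where 10.6% of all did. These were Fos (0.71, limma adjusted p = 2.76e-05), Fosb (2.72), both probe sets of Jun (0.79 and 1.19), Junb (1.19), Jund (0.72) and Mafk (0.90, limma adjusted p = 0.022). The brighter probe set of Fosl2 then fell (-0.96, limma adjusted p = 0.0383), the only one of the 13 to do so, where 11.6% of all fell. Without ST-HSC replicate 2 the same 7 probe sets rose, where 15.5% of all did, with Fos at 4.78 and Mafk at 1.07. In these fits the lone ST-HSC array is assumed to vary like the LT-HSC pair, which alone gave the spread. Without LT-HSC replicate 1 or 2, 0 and 0 passed, where 1.73% and 1.68% of all rose, and 3 and 2 were higher at an unadjusted p under 0.05, where 8.94% and 10.5% of all were. Centring the arrays on their medians in place of quantile normalization gave 6 higher, where 8.06% of all were, and no normalization gave 4, where 6.18% were.

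**Figure D4:**
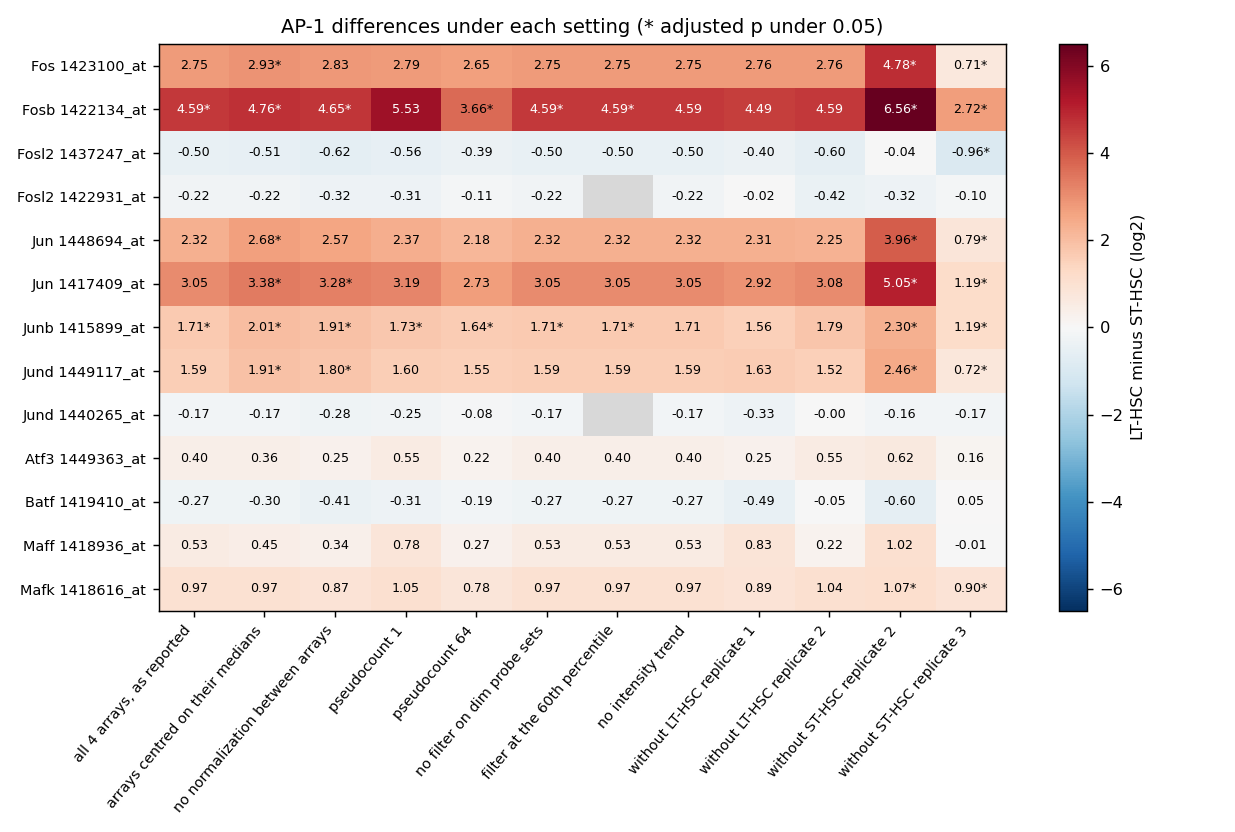
Each cell gives the LT-HSC minus ST-HSC difference (log2) of 1 probe set in 1 setting, with red for higher in LT-HSC, blue for lower, grey for not tested and an asterisk for an adjusted p under 0.05. Fos stayed at or near 2.75 in most settings and was 4.78 when ST-HSC replicate 2 was left out and 0.71 when ST-HSC replicate 3 was.

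Other members of the same families did not move as a group. Of 11 listed further AP-1 and Maf factors, 9 had a named probe set and 6 were tested, of which 0 rose and 0 fell in limma (1 and 1 at an unadjusted p under 0.05), beside 7.92% of all genes tested that rose and 6.41% that fell (15.1% and 18.0% at an unadjusted p under 0.05). Their median difference was -0.07. Jdp2, a repressor that pairs with Jun, read 105 and 91.0 on the LT-HSC arrays, against 230 and 325 on the ST-HSC pair (difference -1.25, SE 0.35, limma adjusted p = 0.063). Maf, a large Maf factor of lymphocytes and macrophages, read 90.8 and 162 on the LT-HSC arrays, against 60.2 and 48.7 on the ST-HSC pair (1.13, SE 0.33, limma adjusted p = 0.0705). Fosl1, the gene of Fra-1, read at most 29.0 on any of the 4 arrays.

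Of the 6 CNC and Bach partners of small Maf proteins, 2 fell in LT-HSC and 0 rose (3 and 0 at an unadjusted p under 0.05), with a median of -0.61. Over all genes tested 6.41% fell and 7.92% rose (18.0% and 15.1% at an unadjusted p under 0.05). Nfe2, whose protein pairs with small Maf proteins in megakaryocytes and erythroid cells, read 868 and 700 on the LT-HSC arrays, against 2080 and 1912 on the ST-HSC pair (-1.50, SE 0.22, limma adjusted p = 0.00898). Bach2, a repressor of lymphoid cells, read 31.7 and 58.2 on the LT-HSC arrays, against 192 and 139 on the ST-HSC pair (-1.47, SE 0.32, limma adjusted p = 0.031). Nfe2l2, the gene of the oxidative stress factor Nrf2, lay at -1.05 (SE 0.35) and did not pass (limma adjusted p = 0.0987). In these 3 genes both LT-HSC arrays were below both ST-HSC arrays after normalization, where 34.2% of all probe sets tested were. Nfe2l1 (0.42) and Nfe2l3 (0.30) had both LT-HSC arrays above, as Mafk did, where 26.9% of all were, and neither passed. Bach1 (-0.16) overlapped between the groups.

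Of 13 tested MAP kinases and kinases upstream of Jun and Fos, 3 rose and 0 fell in limma (4 and 3 at an unadjusted p under 0.05), with a median of 0.03. The shares of all genes tested were 7.92% and 6.41% (15.1% and 18.0% at an unadjusted p under 0.05). Map3k1, which feeds into the Jun kinases, read 1663 and 1546 on the LT-HSC arrays, against 410 and 262 on the ST-HSC pair (2.14, SE 0.28, limma adjusted p = 0.00683). Map2k1, the kinase MEK1 upstream of ERK, rose by 1.15 (SE 0.22) and Map3k5, the stress kinase ASK1, by 1.08 (SE 0.26). Mapk8 (JNK1) and Mapk9 (JNK2), which phosphorylate c-Jun, lay at -0.63 and -0.42 and did not pass.

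Of 9 tested factors that bind the Fos and Jun promoters, 1 rose and 0 fell in limma (2 and 1 at an unadjusted p under 0.05), with a median of 0.37. Among all genes tested 7.92% rose and 6.41% fell (15.1% and 18.0% at an unadjusted p under 0.05). The factor that rose was Mef2c, a MADS-box factor, with 2144 and 1656 on the LT-HSC arrays, against 662 and 374 on the ST-HSC pair (1.72, SE 0.33, limma adjusted p = 0.0219). Srf, the gene of serum response factor, read 278 and 298 on the LT-HSC arrays, against 263 on ST-HSC replicate 2 and 109 on ST-HSC replicate 3, and did not pass (0.76, SE 0.40, limma adjusted p = 0.249).

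Of 12 tested genes that act in the turnover of AP-1 proteins and mRNAs, 2 rose and 0 fell in limma (3 and 3 at an unadjusted p under 0.05), with a median of 0.07. For comparison, 7.92% of all genes tested rose and 6.41% fell (15.1% and 18.0% at an unadjusted p under 0.05). Zfp36l1, which promotes decay of mRNAs with AU-rich elements, read 1666 and 1583 on the LT-HSC arrays, against 278 and 189 on the ST-HSC pair (2.67, SE 0.27, limma adjusted p = 0.00246). Fbxw7, the ubiquitin ligase component that targets c-Jun, rose by 1.75 (SE 0.28, limma adjusted p = 0.0123). Zfp36, the gene of tristetraprolin, which binds the AU-rich element of Fos mRNA, read 2434 and 2184 on the LT-HSC arrays, against 835 on ST-HSC replicate 2 and 155 on ST-HSC replicate 3. Like Fos and Jun it was highest on the LT-HSC arrays and lowest on ST-HSC replicate 3, and it did not pass (2.42, SE 0.69, limma adjusted p = 0.0658).

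Genes known as AP-1 targets in other cells gave no calls, and few of them were bright enough to be tested. Of 14 with a named probe set 7 were tested, 0 rose and 0 fell in limma (1 and 1 at an unadjusted p under 0.05), and the median was 0.19. Across all genes tested 7.92% rose and 6.41% fell (15.1% and 18.0% at an unadjusted p under 0.05). Timp1 (0.63) and Vegfa (0.65) lay higher in LT-HSC. Ccnd1 (0.19), Hbegf (0.13) and Mmp9 (-0.99) overlapped between the groups. Set against ST-HSC replicate 2 alone, the LT-HSC mean differed by -0.29, -0.57 and 0.23 for them, so their signs rested on ST-HSC replicate 3. None of these genes passed. Cd44, a receptor for hyaluronan, read 2221 and 2311 on the LT-HSC arrays, against 1395 and 1353 on the ST-HSC pair (0.48, SE 0.19, limma adjusted p = 0.138). Plaur, the urokinase receptor, read 14.0 and 36.2 on the LT-HSC arrays, against 83.7 and 95.8 on the ST-HSC pair (-1.29, SE 0.34, limma adjusted p = 0.0519). The matrix protease genes Mmp3 and Mmp13 and the cytokine genes Il2, Il6 and Ccl2 were too dim to be tested.

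Of 19 tested other immediate early genes, 9 rose and 1 fell, where 7.92% of all genes rose and 6.41% fell, and their median was 1.85. Nr4a2, an orphan nuclear receptor, read 1326 and 1684 on the LT-HSC arrays, against 27.0 and 11.2 on the ST-HSC pair (5.43, SE 0.35, limma adjusted p = 0.00049). Egr2 (4.41), Gadd45b (2.27) and Ier5 (2.24) were the next of smallest p. The gene that fell was Myc (-1.86, SE 0.31, limma adjusted p = 0.0154). Dusp1, Nr4a1, Nr4a3, Ier3 and Ptgs2 overlapped between the groups after normalization and did not pass. Egr1, a zinc finger factor induced with Fos, read 8381 and 7977 on the LT-HSC arrays, against 5874 on ST-HSC replicate 2 and 772 on ST-HSC replicate 3, and did not pass (1.85, SE 0.81, limma adjusted p = 0.177).

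The list calls moved with the arrays, as did those of the AP-1 members. Without ST-HSC replicate 3, 10 other immediate early genes rose and 2 fell, with a median of 0.53, where 12.7% of all genes rose and 14.8% fell. Without ST-HSC replicate 2, 15 rose and 1 fell, with a median of 2.64, where 17.6% rose and 19.5% fell. Without LT-HSC replicate 1 or 2, 3 and 2 of them rose, where 2.08% and 2.08% of all genes rose and 0.125% and 0.265% fell. In those last 2 fits none of the other pathway lists above had a call (0 each). For the turnover genes, 4 rose and 3 fell with ST-HSC replicate 2 left out, and 3 rose and 4 fell with ST-HSC replicate 3 left out. For the factors that bind the Fos and Jun promoters, these counts were 5 and 1 with ST-HSC replicate 2 left out, and 2 and 3 with ST-HSC replicate 3 left out. Of the kinases, 4 rose and 1 fell in each of these 2 fits. Of the CNC and Bach genes 3 fell in the first and 2 in the second, and 0 rose in either. Of the AP-1 targets 1 rose and 2 fell in the first, and 1 rose and 0 fell in the second. Of the further AP-1 and Maf factors 1 rose and 1 fell in the first, and 0 and 0 in the second.

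**Figure D5:**
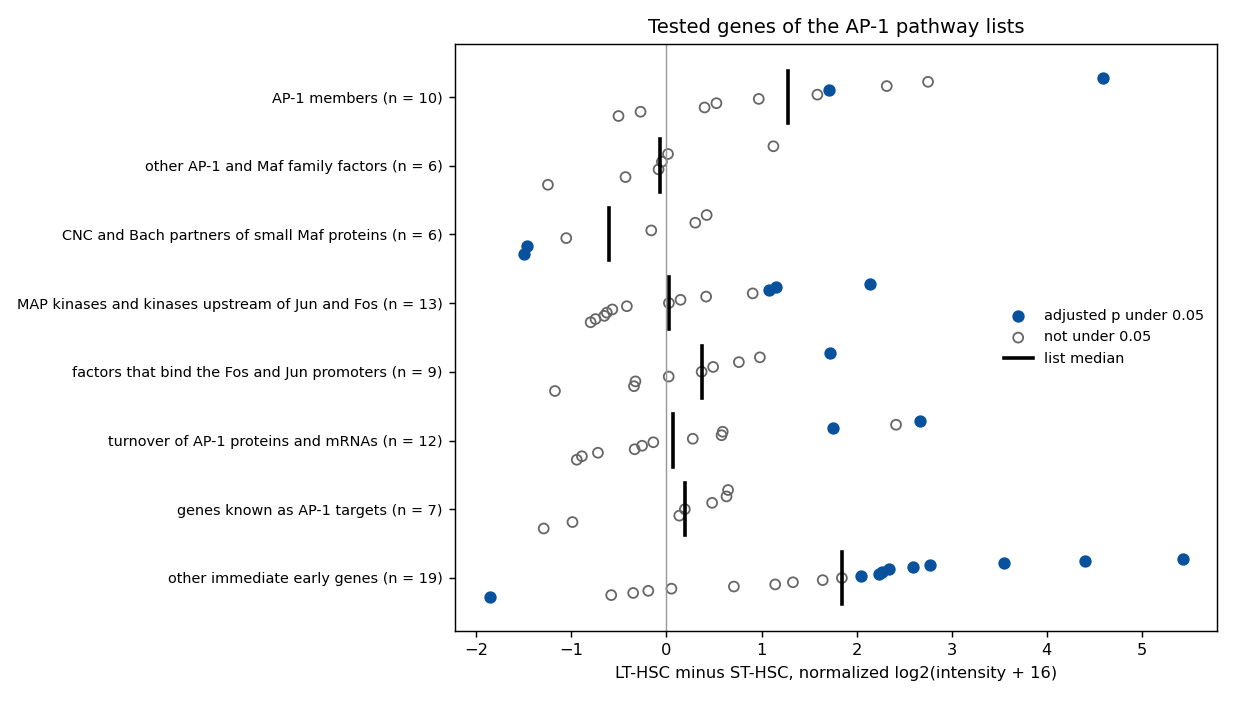
Each point is the LT-HSC minus ST-HSC difference (normalized log2) of 1 tested gene by its brightest probe set, with filled points for an adjusted p under 0.05 and bars for list medians. The medians were 1.28 for the AP-1 members and 1.85 for other immediate early genes, and lay between -0.61 and 0.37 for the other 6 lists.

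The genes whose pattern over the 4 arrays was most like that of Fos were Eif2s3y, Jun, Chka, Malat1 and Egr1, by the root mean square difference of centred log2 values (0.38, 0.40, 0.42, 0.50 and 0.60). Eif2s3y is Y-linked, Chka encodes a choline kinase and Malat1 a nuclear non-coding RNA. Those most like Jun were Malat1, Chka, Egr1, Zfp36 and Dnajc7, from 0.13 for Malat1 to 0.27 for Dnajc7, a co-chaperone gene. Malat1 read 5689 and 5249 on the LT-HSC arrays, against 2334 on ST-HSC replicate 2 and 358 on ST-HSC replicate 3. Of the other members, Fos (0.40), Jund (0.61) and Junb (0.78) were closer to Jun than Fosb (1.16), Maff (1.17) and Mafk (1.25). Atf3, Fosl2 and Batf were further from it. Likeness over 4 arrays is a description, with no test.

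Of the sort markers, Cd34 differed as the gates set it. Among markers of other cells, those of plasma cells and most of those of B cells moved with the groups, while the other lists were mixed or had few calls. Cd34 read 18.3 and 23.5 on the LT-HSC arrays, against 841 and 1142 on the ST-HSC pair, and Kit 397 and 382 on the LT-HSC arrays, against 684 and 907 on the ST-HSC pair. Of 13 blood stem cell genes tested, 4 fell in LT-HSC and 0 rose (7 and 0 at an unadjusted p under 0.05). The 4 were Cd34, Hoxa9, Tal1 and Kit, and the gene of Sca1 was not analysed here. Beside these counts and the marker counts below, 6.41% of all genes tested fell and 7.92% rose (18.0% and 15.1% at an unadjusted p under 0.05). Flt3, which encodes CD135, the marker both gates left out, read 62.3 and 53.4 on the LT-HSC arrays, against 258 and 134 on the ST-HSC pair, and did not pass (-1.37, SE 0.38, limma adjusted p = 0.0631). All 6 plasma cell markers rose in LT-HSC, among them Sdc1 (syndecan-1) with 5728 and 5677 on the LT-HSC arrays, against 113 and 104 on the ST-HSC pair. Their summed intensity was 35852 and 35879 on the LT-HSC arrays, against 1562 and 2696 on the ST-HSC pair. Of 6 tested B cell markers 4 rose, with a summed intensity over 7 genes of 4683 and 5186 on the LT-HSC arrays, against 276 and 376 on the ST-HSC pair. No plasma or B cell marker was under an intensity of 1 on any array. The lineage-negative gate is designed to leave out mature B cells. The part of these cells in the AP-1 differences was not tested, and in sorted bulk RNA a change in the share of cells and in the RNA per cell cannot be told apart.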

How the data were processed

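Per the labels' protocols, Trizol-extracted RNA of sorted cells went through 2 rounds of amplification and biotin labelling before hybridisation to Affymetrix arrays. The authors deposited a linear intensity for each probe set on each array, and the sources used here do not say how the probes were summarised or scaled. The median intensity was 19.1 and 28.3 on the LT-HSC arrays, against 26.9 and 25.9 on the ST-HSC pair. After 64 control probe sets were left out, log2(intensity + 16) was quantile normalized, and the 27022 of 45037 probe sets with a mean above the 40th percentile were tested, all 13 AP-1 probe sets among them. The groups were tested by limma 3.58.1 under R 4.3.3, using lmFit and a moderated fit by eBayes whose prior followed the intensity (2 residual and 4.84 prior degrees of freedom), and Benjamini-Hochberg adjustment over all probe sets tested, with a threshold of 0.05. Differences are LT-HSC minus ST-HSC, SE is the moderated standard error, and arrays carry no counts, so their number limits the precision. With 2 arrays against 2 an exact two-sided permutation test cannot go below p = 0.333, so none was used. The procedure was tested on simulated data in which all 4 arrays varied alike, so that test does not cover an array that stands apart.

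Probe sets were named through the platform's annotation, which gave 1 symbol to 34945, several to 932 and none to 9160. All 10 AP-1 symbols matched a RefSeq table of assembly GRCm38.p6 by Entrez identifier, and gene coordinates and promoter windows are from RefSeq in that build. Each listed gene is represented by its brightest probe set. Named genes are all 10 AP-1 members, up to 4 genes of smallest p per list and the 5 genes most like Fos and Jun; Fosl1, Mapk8, Mapk9, Flt3, the untested target genes, Xist and others named beside a list were chosen after their values were seen. The members and lists were chosen with earlier results of these data known. Of the further marker lists, monocyte (1 rose, 0 fell), T and NK cell (2 and 1), erythroid (1 and 1), platelet (1 and 2) and mast cell markers (1 and 1) are not described further. Beside these counts, 7.92% of all genes tested rose and 6.41% fell. Alternatives were other normalizations, pseudocounts, filters and spread models, and fits that lacked 1 array but tested the same probe sets. A further item of the mice's genotype is not reported here.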

Additional observations from a re-analysis of the deposited data

How the results depend on the processing

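The number of AP-1 probe sets higher in LT-HSC was 2 as reported, 6 with arrays centred on their medians, 4 with no normalization between arrays, 1 with a pseudocount of 1 and 0 with no intensity trend (6 at an unadjusted p under 0.05, where 13.7% of all probe sets were). It was 2 with a pseudocount of 64, with no filter and with a filter at the 60th percentile. With each array left out in turn it ranged from 0 to 7, and the number lower in LT-HSC from 0 to 1. With each array left out, Batf ranged from -0.60 to 0.046 and Maff from -0.0099 to 1.02, and both changed sign without ST-HSC replicate 3; no other probe set of the family changed sign under the alternatives run, which were 11, or 10 for the dimmer probe sets of Fosl2 and Jund, not tested with the filter at the 60th percentile. Fosb passed under 7 of 11 alternatives, Junb under 8, the bright probe set of Jund under 4, Fos under 3 and Mafk under 2. The brighter probe set of Jun passed under 3 and its second under 4. The brighter probe set of Fosl2 passed under 1, there as lower in LT-HSC. Over all probe sets tested, 1816 rose and 1480 fell as reported, 467 and 19 when LT-HSC replicate 1 was dropped, 454 and 44 when LT-HSC replicate 2 was, 4178 and 4537 when ST-HSC replicate 2 was, and 2870 and 3140 when ST-HSC replicate 3 was. The array left out changes the spread that the fit estimates, and other causes were not tested. No paired analysis was possible because the groups share only 1 replicate number. Leaving out arrays for the list counts was chosen after seeing the data. Signals near the pseudocount, such as Fosb on ST-HSC replicate 3, limit the folds of dim readings.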
